A study of Mus musculus with 7 samples.

Results

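The report covers 10 genes of bile acid synthesis and its feedback control, namely Cyp7a1, Cyp7b1, Cyp8b1, Cyp27a1, Akr1d1, Hsd3b7, Amacr, Slc27a5, Baat and Nr0b2, out of 21536 protein-coding genes. They were chosen by name, with earlier results of these data known. A peak was counted for a gene when the midpoint of the peak fell in the gene span or within 50 kb of it. Binding of RARα, RARβ and RXRα was measured by ChIP-seq, in which chromatin is precipitated with an antibody and the recovered DNA is sequenced. The chromatin came from whole livers of male wild type C57BL/6 mice, age 3 months, in a control group fed normal diet and an RA group fed retinoic acid for 1 day according to the labels. The methods of the paper read with these data name male C57BL/6 mice and describe a longer RA feeding. That paper reports RXRα and RARα but no RARβ binding. Whether its methods hold for these libraries is uncertain, so the duration is not settled. How many livers went into a library is not stated in the sources used here. There was 1 library per receptor and diet, so no value has a replicate error, no p-value is given, and every difference below describes these 6 libraries and not the diets in general. Because whole liver was used, binding in fewer cells and weaker binding in each cell cannot be told apart.

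Hepatocytes turn cholesterol into bile acids by a classic pathway that opens with hydroxylation of the sterol ring and an alternative pathway that opens with hydroxylation of the side chain. The ring is then reduced and oxidised, the side chain is shortened in peroxisomes, and the acid is joined to an amino acid before it is secreted. Bile acids activate the receptor FXR, which binds DNA with RXRα and induces Nr0b2, and the Nr0b2 product SHP, a nuclear receptor without a DNA-binding domain, represses Cyp7a1 and Cyp8b1. RARs also bind DNA as partners of RXR, typically at pairs of AGGTCA-like half-sites, which is why RAR and RXRα peaks were compared at the same places.

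Among the starts, that of Nr0b2 had strong RXRα peaks, that of Hsd3b7 had a peak in each of the 6 lists, and that of Cyp8b1 had weak peaks. The bases before these 3 starts are printed as examples of a strong, a shared and a weak start. They come from the RefSeq promoter table of GRCm38.p6, the 250 bases before the start in the direction of the gene, and capitals mark, on either strand, the half-site AGGTCA with the variant GGGTCA, the variant AGTTCA and the variant GGTTCA, and the longer half-site CAAGGTCA or CAAGGCCA of the type LRH-1 binds.
Nr0b2 (chr4:133553126-133553375, plus strand): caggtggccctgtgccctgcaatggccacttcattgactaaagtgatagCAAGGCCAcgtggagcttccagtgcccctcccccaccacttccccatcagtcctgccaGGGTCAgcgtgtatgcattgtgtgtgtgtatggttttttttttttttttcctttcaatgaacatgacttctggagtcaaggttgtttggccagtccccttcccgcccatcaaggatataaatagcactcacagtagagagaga
Hsd3b7 (chr7:127800359-127800608, plus strand): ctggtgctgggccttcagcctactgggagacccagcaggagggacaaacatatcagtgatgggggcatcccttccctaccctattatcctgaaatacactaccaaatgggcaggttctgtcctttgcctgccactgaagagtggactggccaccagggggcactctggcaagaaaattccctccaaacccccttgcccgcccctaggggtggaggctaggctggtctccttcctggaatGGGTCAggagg
Cyp8b1 (chr9:121916306-121916555, minus strand): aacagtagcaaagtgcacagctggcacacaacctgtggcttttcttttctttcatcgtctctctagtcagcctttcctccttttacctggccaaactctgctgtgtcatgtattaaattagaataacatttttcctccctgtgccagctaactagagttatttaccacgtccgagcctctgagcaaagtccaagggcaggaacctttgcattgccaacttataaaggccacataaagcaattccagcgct

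The printed stretch of Nr0b2 held a half-site that began 143 bases before the start and an LRH-1 type half-site that began 201 bases before it. In Hsd3b7 a half-site began 11 bases before the start, and the stretch of Cyp8b1 held no searched letters. Of the 10 genes, 5 had a sequence in the table, and 4 of these, all but Cyp8b1, held at least 1 half-site in the searched 300 bases (250 before and 50 after the start), against 43.7% of 32851 promoters. The start here is that of the promoter table. For Cyp27a1 and Akr1d1 the 250 bases ended at 74713534 and 37530172, inside the gene from the starts used for peaks, 74713148 and 37529978. The LRH-1 type half-site occurred in 1 of the 5, Nr0b2, against 3.92% of all promoters. Direct repeats of the half-site with a spacing of 0 to 5 bases, or an inverted repeat with a spacing of 1 base, were in 0 of the 5 and in 0.938% of all promoters. Every direct or inverted repeat also counts as a half-site. Such a match describes letters in this window and does not show a bound site.

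The 6 lists held 245004 peaks in all, 35521 and 44296 for RARα (control and RA), 14968 and 29467 for RARβ, and 61128 and 59624 for RXRα. The read totals behind them are not in the lists, so the depth of each library is unknown. Each peak carries the score of the peak caller MACS, which grows as the p-value of the peak falls and starts at 50. Scores were not normalized between libraries, so a peak is described by its score and by its rank, the share of the peaks of its own list with a lower score, given as a percent. At the same place from the top, a peak has a higher percent in a longer list. This bears on every comparison of percents between diets for RARβ and, less, for RARα. The longer RA lists also had higher median scores, 99.4 against 76.29 under control for RARβ and 122.57 against 111.7 for RARα. The place of a peak counted from the top of its list, which the length does not lift, is given for some comparisons between diets. Elsewhere only scores and percents are given. As a check of the tissue, 7 to 10 of 10 hepatocyte markers carried a peak no more than 10 kb from the start in each list. The same count was 1 of 5 for Kupffer cells, 0 to 2 of 5 for stellate cells, 0 to 2 of 5 for cholangiocytes and 0 to 4 of 10 for genes of other organs. Over all protein-coding genes the share was 44.1% to 63.3% by list. The lowest hepatocyte count, 7 of 10 in the RARα control list, stood near the 61.9% of all genes in that list.

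All 10 genes had at least 1 peak in each of the 6 lists within the 50 kb window, whereas 67.2% of all protein-coding genes did. In single lists the share of all genes was 83.7% and 84.8% for RARα (control and RA), 70.2% and 77.8% for RARβ, and 83.7% and 84.3% for RXRα. The 10 genes had a median span of 12.4 kb, against 17.3 kb for all protein-coding genes. They held more peaks each than most genes, with a median of 13 RXRα peaks in the control list and 11.5 in the RA list, against 5 over all genes in both lists. The corresponding medians were 7 and 10 for RARα, against 4 in both lists over all genes, and 3 and 7.5 for RARβ, against 1 and 3. These windows overlapped those of other genes, and 252 of the 539 peaks (46.8%) lay nearer to the start of the counted gene than to any other start. That share ran from 16.0% at Baat to 91.4% at Akr1d1. At the edge of the window, 63 peaks lay 40 to 50 kb from a gene span and 74 lay 50 to 60 kb from it.

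High-ranked RXRα peaks were found around every one of the 10 genes. A peak of the top 10% of the RXRα list lay in the window of 10 of 10 genes under control diet and of 10 of 10 under RA diet, against 34.3% and 33.0% of all genes. For RARα the counts were 4 and 6 of 10, against 36.2% and 40.2%, and for RARβ they were 2 and 4 of 10, against 18.4% and 29.1%. The RARα and RARβ counts thus stood near the share of all genes and the RXRα counts above it, with no test possible. Within 1 kb of the start, the RXRα peaks of the top 10% were at Cyp7a1, Cyp27a1, Nr0b2 and Amacr under control diet (4 of 10, against 2.3% of all genes) and at the first 3 of these under RA diet (3 of 10, against 2.27%).

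**Figure D1:**
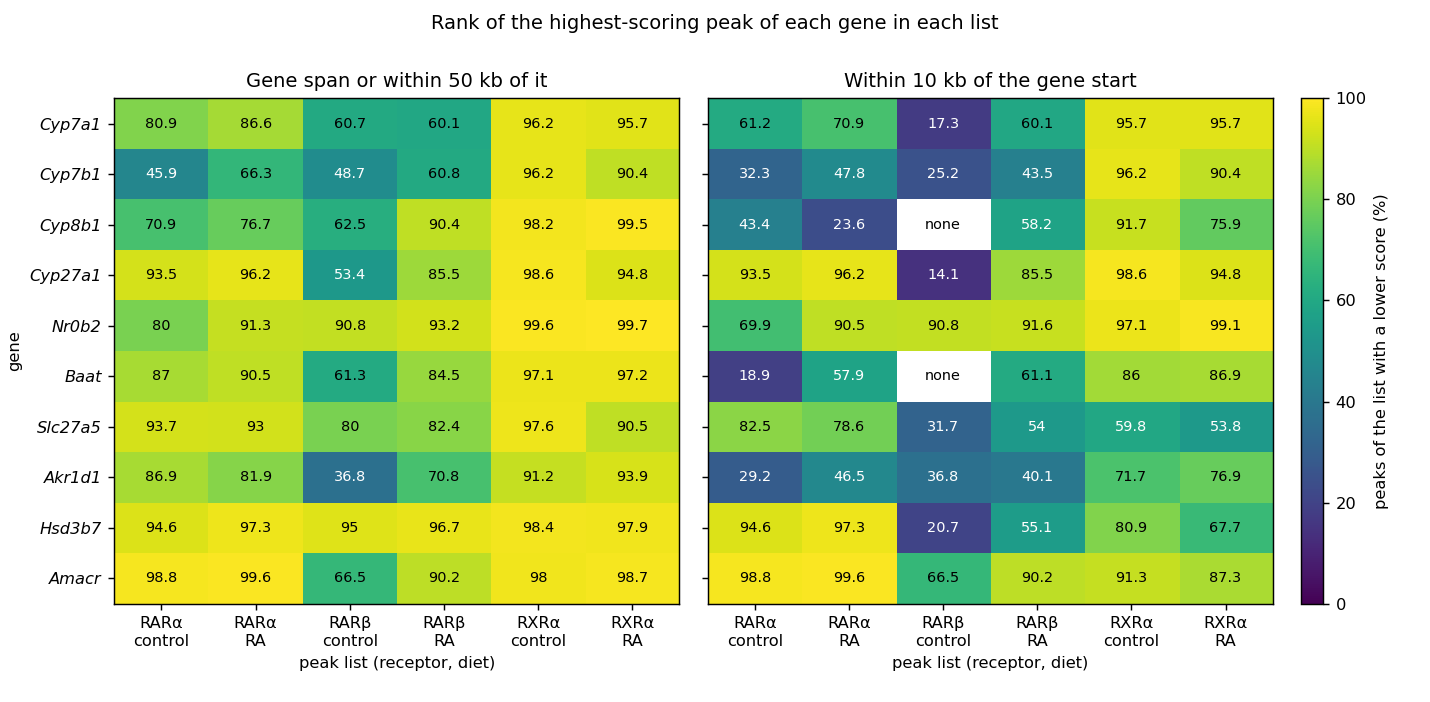
The grid gives the percent of the peaks of a list with a lower score than the best peak of each gene (rows) in each list (columns), in the gene span and 50 kb around it (left) or within 10 kb of the start (right). In the left panel all RXRα values lie at 90.4% or more, and in the right panel the RARβ control list has no peak for Cyp8b1 and Baat.

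Close to the starts the members divided. In all 6 lists, 8 of the 10 genes had a peak 10 kb or less from the start, against 38.2% of all genes. The 2 exceptions were Cyp8b1 and Baat, which had none in the RARβ control list (8 of 10, against 44.1% of all genes). The other lists had one at 10 of 10 genes, against 61.9% and 63.3% for RARα, 54.7% for RARβ under RA, and 61.3% and 61.7% for RXRα. Within 1 kb of the start, 3 genes had a peak in all 6 lists, namely Cyp7a1, Hsd3b7 and Amacr, against 24.7% of all genes. The single-list counts at this distance were 8 and 9 of 10 for RARα (45.9% and 46.2% of all genes), 5 and 7 of 10 for RARβ (33.1% and 40.3%), and 8 and 9 of 10 for RXRα (40.1% and 41.9%). Baat had no peak within 1 kb of its start in any list.

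Cyp7a1, the rate-limiting enzyme of the classic pathway, lies on chromosome 4 from 6265612 to 6275632 on the minus strand and had 45 peaks. The region over its start was called in all 6 lists. There the RXRα peak scored 548 (rank 92.2%) under control diet and 713 (95.6%) under RA diet, the RARα peak 143 (61.2%) and 199 (70.9%), and the RARβ peak 55.7 (17.3%) and 117 (60.1%). RXRα thus had the highest percent of the 3 receptors at the start on both diets. By place, RXRα stood at 4765 and 2634, RARα at 13770 and 12874 and RARβ at 12381 and 11744, so the RARβ places were close while the percents were not. A second RXRα peak 2.98 kb upstream scored 691 and 722, both at 95.7%, with RARβ at 76.4 in the RA list and no RARα peak. The highest RXRα peak of the control list lay 29.3 kb downstream of the start, past the end of the gene, and scored 721. At 12.7 kb downstream the RXRα rank was 81.9% under control and 7.95% under RA diet, the largest difference among the regions around the 10 genes that were called in both RXRα lists, and a RARβ peak of the control list (88.4) had no counterpart in the RA list. The strongest RARα peaks, 247 and 316, lay 50.1 kb downstream and nearer to the start of Ubxn2b. The remaining region within 10 kb of the start, 5.04 kb inside the gene, had an RXRα peak of 81.2 in the control list.

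Cyp27a1, the mitochondrial enzyme that opens the alternative pathway and starts side-chain oxidation, lies on chromosome 1 from 74713148 to 74737897 on the plus strand. At its start RARα scored 404 (93.5%) and 487 (96.2%) and RXRα 629 (94.5%) and 669 (94.8%). RARβ had no peak there in the control list and one of 199 (85.5%) in the RA list. The start was therefore ranked high for RARα and RXRα on both diets and for RARβ on the RA diet. At 8.76 kb inside the gene, RXRα scored 972 (98.6%) and 656 (94.4%), RARα 103 and 112, and RARβ 54.4 (14.1%) and 156 (75.2%). This was 1 of 3 regions around the 10 genes where the RARβ percent was higher by at least 50 points under RA, and its place went from 12845 to 7309. At 14.3 kb upstream all 6 lists had a peak again, with RXRα at 615 and 584 and RARβ at 79.7 and 184. The RXRα peak 6.31 kb inside the gene ranked at 61.4% in the control list and at 6.63% in the RA list.

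Cyp7b1, which hydroxylates the oxysterols of the alternative pathway, is the longest of the 10 genes, on chromosome 3 from 18071944 to 18243890 on the minus strand. Its start was weakly marked. RARα scored 80.2 and 110 at the start region, RARβ 59.3 in the control list with no peak in the RA list, and RXRα 55.2 in the RA list with no peak in the control list. The strong peaks lay upstream, where RXRα scored 725 (96.2%) and 518 (90.4%) at 7.42 kb from the start and 438 (87.8%) and 174 (57.3%) at 10.6 kb. Both of these RXRα ranks were lower under RA diet. RARα scored 73.8 and 93.2 and RARβ 89.6 in the RA list at the first of the 2 sites. Its best RARα peak ranked at 45.9% in the control list, the lowest best RARα rank of the 10 genes, and lay 194 kb from the start near Bhlhe22. Cyp7b1 had 0 regions called in all 6 lists and 11 called in 1 list out of 24. The regions 2.49 kb and 1.5 kb upstream were called in 2 lists each, the former by RXRα at 264 and 137 and the latter by RARα at 117 (RA) and RXRα at 52.8 (control).

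Hsd3b7 oxidises the ring hydroxyl group of the sterol after the first hydroxylation and lies on chromosome 7 from 127800609 to 127803802 on the plus strand. Over its start RARα scored 431 (94.6%) and 529 (97.3%), RARβ 57.1 (20.7%) and 108 (55.1%), and RXRα 337 (80.9%) and 229 (67.7%). RARα thus had the highest percent at this start on both diets, unlike at Cyp7a1. The RARβ peak moved from place 11873 to place 13236 although its score and percent were higher under RA, and the cause was not tested. The strongest RARβ peaks of the window, 248 (95%) and 343 (96.7%), lay 31.6 and 31.5 kb upstream, 830 and 741 bp from the start of Orai3. Other regions within 10 kb of the start were an RXRα site at 8.49 kb (252 and 226) and a RARα peak of 55.8 at 3.98 kb in the RA list.

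Cyp8b1, which adds the hydroxyl group that makes cholic acid, lies on chromosome 9 from 121914356 to 121916305 on the minus strand. At its start, the stretch printed above, RARα scored 78.0 and 74.5, RXRα 66.9 and 94.8, and RARβ 87.2 in the RA list with no peak in the control list. No peak at this start ranked above 41.8%. Higher peaks lay away from it, and RXRα scored 533 (91.7%) and 292 (75.9%) at 3.07 kb downstream, just past the end of the gene. At 26.1 kb downstream, nearer to Ackr2, RXRα scored 915 (98.2%) and 1325 (99.5%), and RARβ had a peak of 235 (90.4%) in the RA list and none in the control list. RARα scored 112 and 77.9 at that place, so the RARα rank was lower under RA where the RXRα rank was higher. RARβ had 1 peak in the whole window in the control list and 9 in the RA list. The regions 7.48 kb and 9.07 kb upstream held RXRα peaks of 104 and 141, and of 116 and 150.

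Akr1d1, which reduces the double bond of the sterol ring, lies on chromosome 6 from 37529978 to 37574921 on the plus strand and had the most peaks of the 10 genes, 81 in 26 regions. Its peaks were many and of middling rank. At the start RARα scored 76.3 and 114, RARβ 65.7 in the control list with no peak in the RA list, and RXRα 148 and 125. The best RXRα peaks ranked at 91.2% and 93.9% and lay 48.6 kb upstream and 67.4 kb downstream of the start. RARβ was called in 17 regions, 14 of them in the RA list and not in the control list, against 54.3% of all RARβ regions. That was the highest such count of the 10 genes, in the window with the most regions. The best RARβ peak of the RA list scored 143 (70.8%). Within the first 10 kb RXRα also had peaks at 2.33 kb (251 and 302) and 8.09 kb (128 and 81.1). The RA lists had RARα peaks of 53.4 and 91.1 and RARβ peaks of 85.1 and 53.3 at these places. In the control lists RARα had a peak of 66.0 at 8.09 kb, and a RARβ peak of 55.1 stood 0.962 kb from the start.

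Amacr, the racemase that turns the side chain into the form that peroxisomal oxidation accepts, lies on chromosome 15 from 10981756 to 10996624 on the plus strand. Its start carried the strongest RARα peaks of the 10 genes. RARα scored 641 (98.8%) and 828 (99.6%), place 438 of 35521 and place 180 of 44296 in the lists. At the same region RARβ scored 97.4 (66.5%) and 232 (90.2%) and RXRα 521 (91.3%) and 448 (87.3%). RARα and RARβ thus ranked higher under RA and RXRα lower, and by place RARβ went from 5008 to 2901 and RXRα from 5322 to 7592. The best RXRα peaks of the window were 22.1 and 22.2 kb upstream, nearer to C1qtnf3, at 881 (98%) and 1047 (98.7%). The other regions within 10 kb of the start were RXRα sites at 8.85 kb upstream (134 and 82.6) and at 4.15 kb inside the gene (77.8, control list).

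Slc27a5 activates bile acids to their coenzyme A form and lies on chromosome 7 from 12988346 to 12998192 on the minus strand, with 7 other gene starts in its window. At its start RARα scored 260 (82.5%) and 246 (78.6%). RXRα had a peak of 56.5 (6.06%) 889 bp upstream in the control list and, at other positions, peaks of 77.6 at 98 bp upstream and 104 (36%) at 849 bp inside the gene in the RA list. RARβ scored 54.9 (8.08%) in the RA list with no peak in the control list. RARα was thus well above RXRα in rank at this start. At 1.99 kb inside the gene the order turned, with RXRα at 180 (59.8%) and 159 (53.8%), RARβ at 62.6 and 106, and no RARα peak. The best RXRα peaks lay 14.8 and 14.7 kb downstream, at 841 (97.6%) and 521 (90.5%), and the best RARα peaks, 408 and 405, lay at the start of Trim28. A weak RXRα peak of the control list (62.2) lay 4.79 kb inside the gene.

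Baat, which joins bile acids to taurine or glycine, lies on chromosome 4 from 49489416 to 49507915 on the minus strand. The nearest upstream region lay 2.76 kb from the start and held RXRα peaks of 406 (86%) and 442 (86.9%), RARα peaks of 64.7 (18.9%) and 146 (57.9%), and a RARβ peak of 119 (61.1%) in the RA list. RARβ was absent from this site in the control list. The best RXRα peaks of the window, 795 (97.1%) and 841 (97.2%), lay 21.8 kb downstream and nearer to Acnat1. The best RARα and RARβ peaks of the control list lay 13.2 kb upstream, over the starts of Mrpl50 and Zfp189. Inside the gene, RARα peaks of 90.2 (1.36 kb) and 128 (3.99 kb) were called in the RA list and an RXRα peak of 195 (62.8%) at 3.99 kb in the control list.

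**Figure D2:**
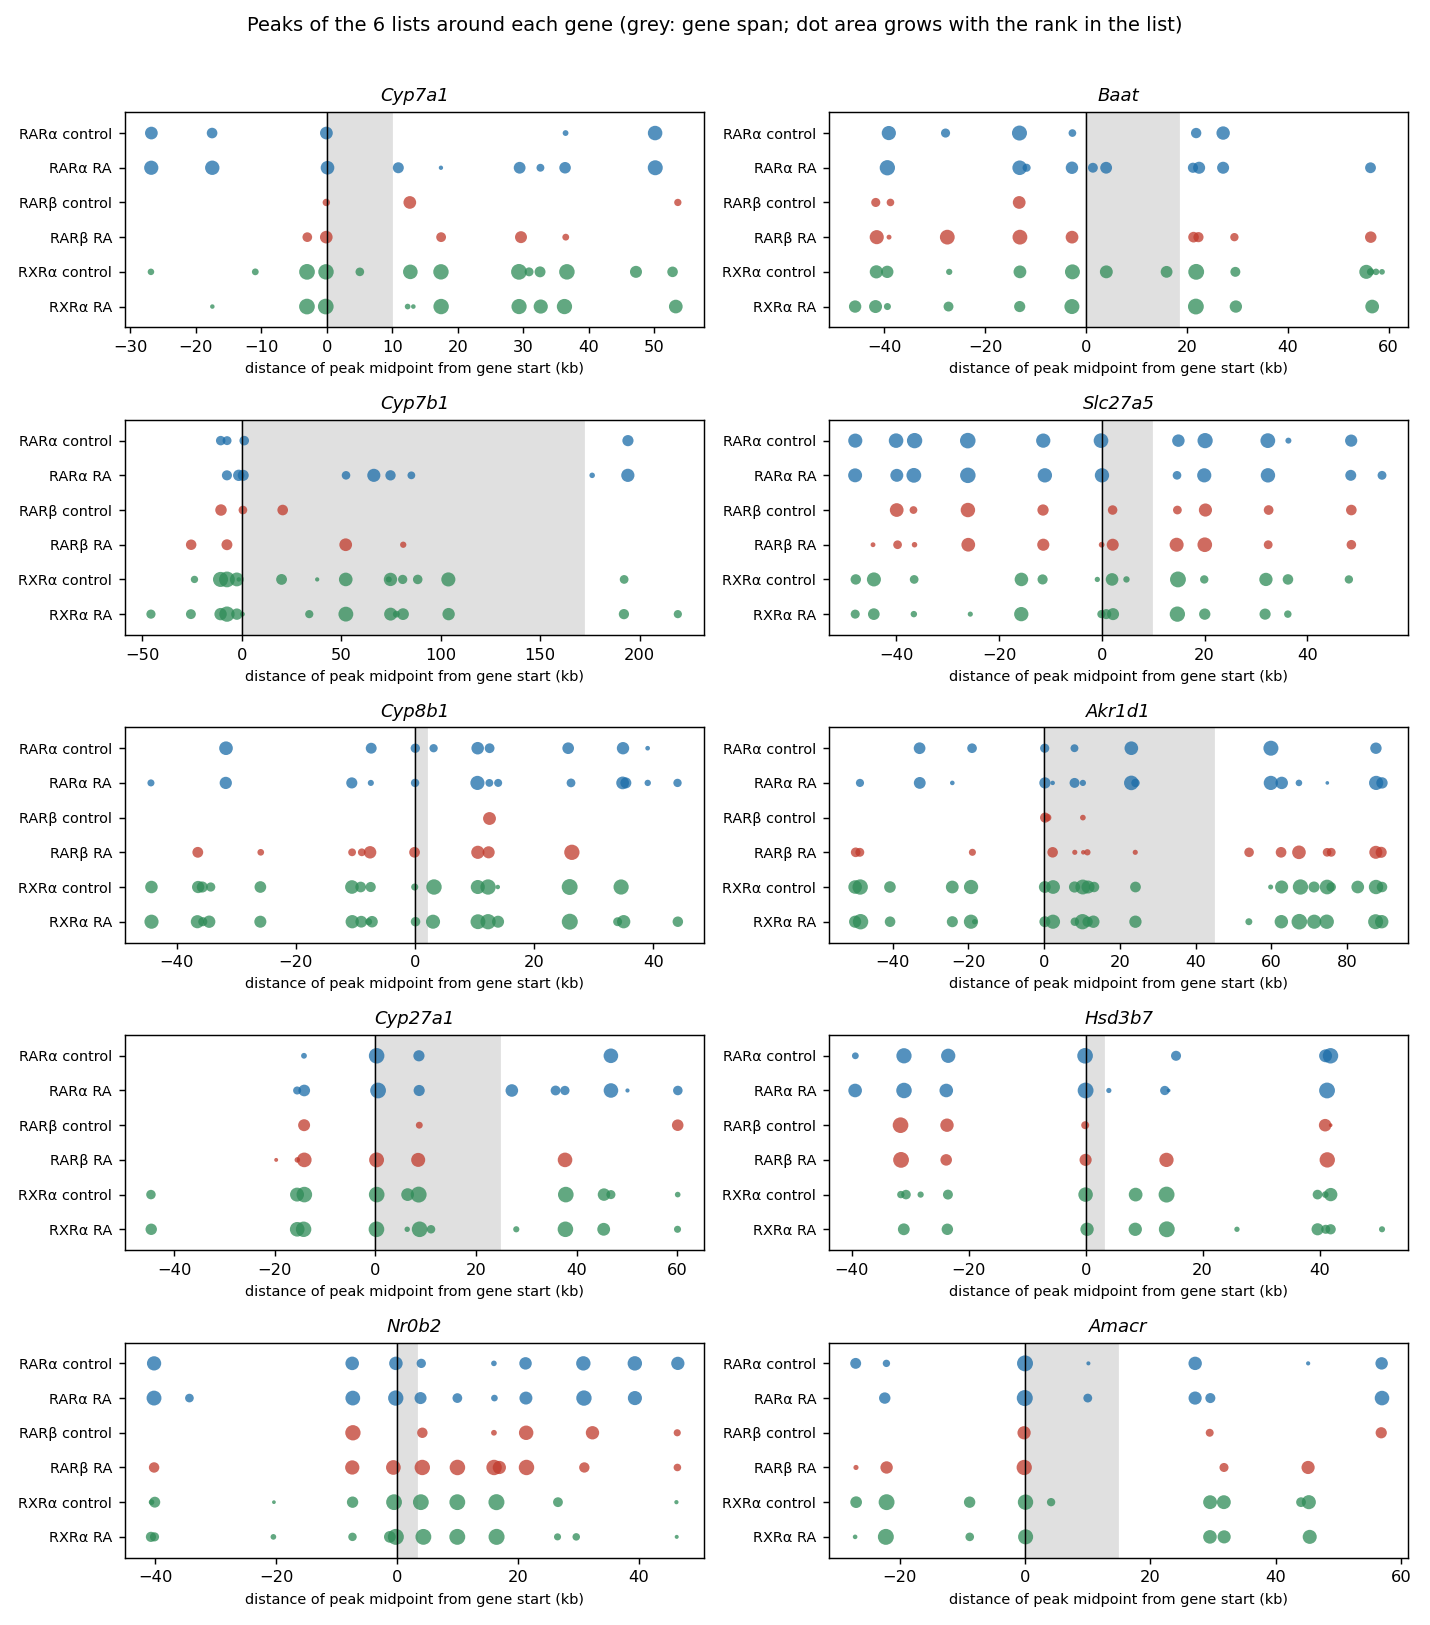
Each panel plots the peaks of the 6 lists (rows; blue RARα, red RARβ, green RXRα) by the distance of the midpoint from the gene start in kb, negative upstream, with dot area growing with the rank and grey marking the gene span. Akr1d1 holds 81 peaks and Amacr 37, the most and the fewest, and the lower red row (RARβ, RA) holds more dots than the upper one at 9 of the 10 genes, with 5 in each at Hsd3b7.

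Nr0b2 had the highest-ranked RXRα peaks of the 10 genes. It lies on chromosome 4 from 133553376 to 133556686 on the plus strand, with 57 peaks in 15 regions and the starts of Kdf1, Nudc, Gpatch3, Gpn2 and Sfn in its window. Over the stretch before its start printed above, in a region from 133551814 to 133553800, RXRα scored 752 (96.6%) and 1164 (99.1%), RARα 177 (69.2%) and 363 (90.5%), and RARβ 186 (82.9%) in the RA list with no peak in the control list. RXRα went from place 2079 to 521 and RARα from 10954 to 4206, so both stood nearer the top of the RA list by place as well as by percent.

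At 3 regions downstream of Nr0b2 the diets differed most for RARβ. At 4.08 kb RXRα scored 771 (96.8%) and 857 (97.3%), RARα 77.4 (30.1%) and 134 (54.1%), and RARβ 67.4 (39.1%) and 246 (91.6%). At 9.98 kb RXRα scored 793 (97.1%) and 972 (98.3%), while RARα (88.5, 33.5%) and RARβ (264, 93.2%) were called in the RA lists and in neither control list. At 16.5 kb, nearer to the start of Gpatch3, RXRα scored 1278 (99.6%) and 1454 (99.7%), place 243 and place 169 in the lists, RARα 55.4 (7.59%) and 62.7 (12.9%), and RARβ 52.4 (8.18%) and 252 (92.1%). RXRα was thus in the top 5% of both lists at the start and at these 3 regions, and RARβ was in the top 10% of its RA list at the 3 downstream regions after ranks of 39.1% or lower, or no peak, in its control list. The RARβ places went from 9111 to 2479 at 4.08 kb and from 13742 to 2320 at 16.5 kb. RARα was below 60% at the 3 downstream regions on both diets, and at 16.5 kb its place went from 32824 to 38592 although its percent was higher under RA.

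The starts of 2 neighbours showed another pattern. At the start of Nudc, 7.39 kb upstream of Nr0b2, RARα scored 180 (69.9%) and 288 (83.8%), RARβ 186 (90.8%) and 165 (77.9%), and RXRα 133 (47.6%) and 80.5 (23.9%). At the start of Gpatch3, 21.3 kb downstream, RARα scored 134 and 166, RARβ 130 (80.2%) and 252 (92.2%), and RXRα had no peak on either diet. High RXRα ranks were thus seen at the start of Nr0b2 and between it and Gpatch3, and not at these 2 neighbouring starts.

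**Figure D3:**
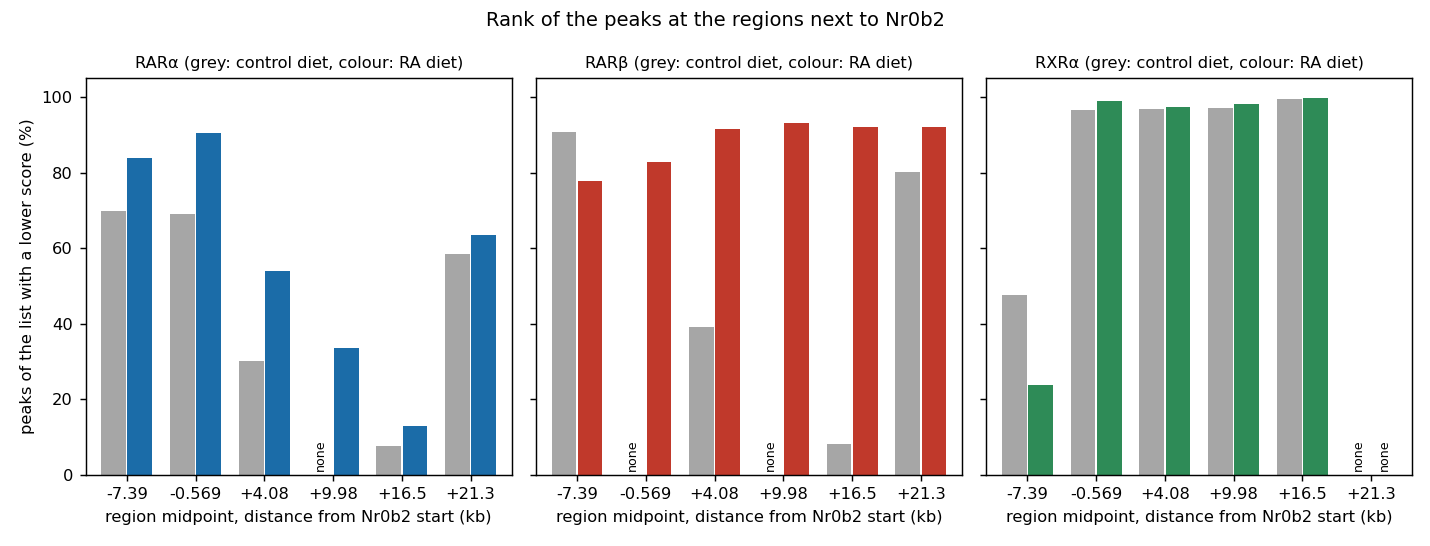
Bars give the percent of the peaks of a list with a lower score for the 6 regions from 7.39 kb upstream to 21.3 kb downstream of the Nr0b2 start, per receptor, grey for control and coloured for RA diet, with "none" where no peak was called. The red RA bars stand at 91.6% to 93.2% in the 4 rightmost regions, and the green bars stand above 96% from the start to 16.5 kb on both diets.

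The number of RARβ peaks around the 10 genes was 39 under control and 79 under RA diet, a ratio of 2.03 against 1.97 for the whole lists. RARα had 69 and 101 peaks, a ratio of 1.46 against 1.25, and RXRα had 128 and 123, a ratio of 0.961 against 0.975. Merged into regions, RARβ was called in 87 regions around the 10 genes, 50 of them (57.5%) under RA and not under control and 11 (12.6%) under control and not under RA. Over all RARβ regions of the series these shares were 54.3% and 9.9%. RARα was called in 107 regions, 39 (36.4%) under RA and not control and 9 (8.41%) the other way, against 27.3% and 10.9% over all regions. RXRα was called in 139 regions, 17 (12.2%) under RA and not control and 24 (17.3%) the other way, against 15.8% and 17.6%. The remaining regions were called under both diets, 26 for RARβ (29.9%, against 35.8%), 59 for RARα (55.1%, against 61.7%) and 98 for RXRα (70.5%, against 66.6%). When each list was cut to its 14968 highest peaks, the length of the shortest, the RARβ regions called under 1 diet were 16 for RA (30.2%) and 17 for control (32.1%). Over all RARβ regions these shares were then 30.1% and 29.0%. Lists of equal length hold nearly as many regions called under either diet alone, so these even counts were largely set by the cut. The RARα counts were then 4 (10.3%) and 7 (17.9%), against 17.8% and 17.9% over all regions.

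**Figure D4:**
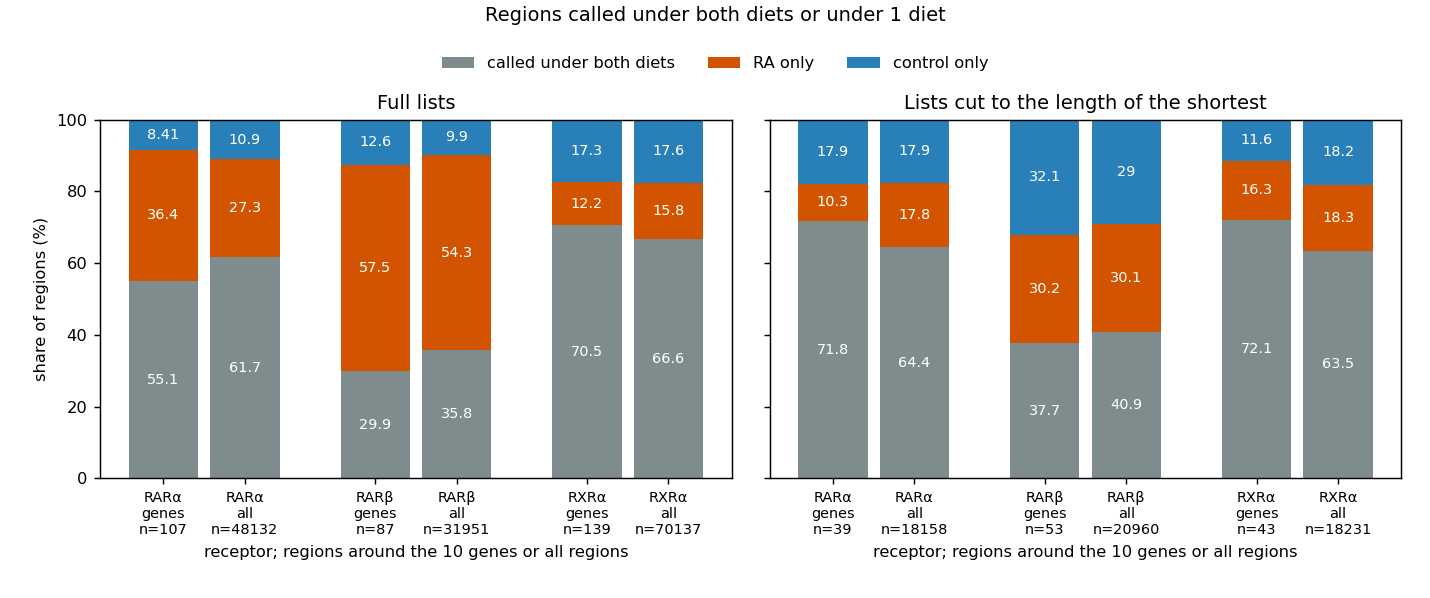
Stacked bars give the percent of regions called under both diets (grey), under RA and not control (orange) or under control and not RA (blue), around the 10 genes and over all regions of the series, for the full lists (left) and for lists of equal length (right). The orange RARβ share around the 10 genes is 57.5% on the left and 30.2% on the right, where the blue share is 32.1%.

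Most RARβ regions called under RA and not control had low ranks. Of the 50 such regions, 2 reached the top 10% of the RA list, against 2.99% of all such regions of the series. These were the Nr0b2 region at 9.98 kb and the Cyp8b1 region at 26.1 kb, and the next highest was the Cyp27a1 start. For RARα the corresponding count was 0 of 39, against 0.0912%, and the highest peak, 173 (65.2%), lay 66.4 kb inside Cyp7b1. The next highest were RARα peaks of 151 at 27.1 kb from the Cyp27a1 start and of 147 at 62.7 kb from the Akr1d1 start. For RXRα 0 of 17 regions called under RA and not control reached the top 10%, against 0.009%. The highest RXRα peaks called under 1 diet were those of 195 inside Baat, 184 at 82.8 kb from the Akr1d1 start and 155 at 47.2 kb from the Cyp7a1 start under control, and of 174, 114 and 101 around Baat, Cyp8b1 and Cyp7b1 under RA. Under control and not RA, the highest RARβ peaks were 99.5 near Gpn2 in the Nr0b2 window, 88.4 at Cyp7a1 and 75.7 in the Cyp27a1 window, and the highest RARα peaks were 166 near Sfn in the Nr0b2 window and 98.2 in the Amacr window.

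Of the 26 RARβ regions called under both diets, 17 had a higher percent under RA, with a median difference of 14.4 points, against 6.3 points and 64.5% of regions over the series. By place, a comparison added after the data were seen, 11 of the 26 stood nearer the top of the RA list, against 32.6% over the series, so 6 of the 17 were higher by percent alone. In 3 of the 26 the percent was higher by at least 50 points, against 9.54% of all such regions, and these were the Nr0b2 regions at 4.08 and 16.5 kb and the Cyp27a1 region at 8.76 kb. The limit of 50 points was set after the values were seen. For RARα 37 of 59 regions had a higher percent under RA, with a median difference of 4.79 points (4.24 over the series), and 28 of 59 were nearer the top by place (45.1% over the series). In 1 of the 59 the percent was higher by at least 50 points (2.29% of all), a region near Orai3 in the Hsd3b7 window. In 0 of the 59 RARα regions and 0 of the 26 RARβ regions was the rank lower by as much, against 0.636% and 1.89% of all. For RXRα 49 of 98 regions had a higher percent under RA, with a median difference of -0.192 points (0.0661 over the series), and 52 of 98 were nearer the top by place (52.7% over the series). In 1 of the 98 the RXRα rank was higher by at least 50 points (0.741% of all), 14 kb downstream of the Cyp8b1 start, and in 2 it was lower by as much (1.17% of all), the Cyp7a1 and Cyp27a1 regions at 12.7 and 6.31 kb.

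In the full lists, of which the RXRα lists were the longest, RAR peaks around the 10 genes mostly coincided with RXRα peaks of the same diet. With lists of equal length they did so less, at 20% and 18.8% of regions for RARα and 32.4% and 61.1% for RARβ (control and RA). That share was not computed over all regions at equal length, so whether the drop is particular to these genes cannot be told. The values below are for the full lists. For RARα this was so for 49 of 68 regions (72.1%, 95% Wilson interval 60.4% to 81.3%) under control and for 65 of 98 (66.3%, 56.5% to 74.9%) under RA diet, against 62.5% and 63.2% of all RARα regions. For RARβ it was so for 30 of 37 (81.1%, 65.8% to 90.5%) and 69 of 76 (90.8%, 82.2% to 95.5%), against 81.6% and 90.7%. The intervals cover counting error over regions and nothing else. They treat regions of the same gene window as independent, so they are no test. The intervals for RARα and RARβ each held the series' value on both diets. Seen from RXRα, 66 of 122 regions (54.1%, 45.3% to 62.7%) had neither RAR under control, against 59.6% over the series. Under RA diet 32 of 115 (27.8%, 20.5% to 36.6%) had neither, against 42.0%, which lay above the interval. All 3 receptors were present in 23 of 143 regions (16.1%) and 51 of 150 (34.0%), against 13.5% and 26.3%.

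The share of RXRα regions without a RAR was lower near gene starts than away from them, around these genes and over the series. Within 1 kb of any start, 3 of 18 RXRα regions around the 10 genes (16.7%) had neither RAR under control and 3 of 18 under RA diet, against 11.3% and 7.89% over the series. Beyond 1 kb, where most RXRα regions lay, these counts were 63 of 104 (60.6%) and 29 of 97 (29.9%), against 67.0% and 47.7%. Over all lists the 10 windows held 169 regions, 18 of them (10.7%) called in all 6 lists and 40 (23.7%) in 1 list, against 9.75% and 29.4% of the 87802 regions of the series. The regions called in all 6 lists numbered 4 each at Hsd3b7 and Slc27a5, 3 at Nr0b2, 2 each at Cyp27a1 and Baat, 1 each at Cyp7a1, Cyp8b1 and Amacr, and 0 at Cyp7b1 and Akr1d1.

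Other genes of bile acid metabolism also had peaks in every list. Each of 12 further enzymes and each of 12 regulators had a peak in all 6 lists within 50 kb, against 67.2% of all genes. An RXRα peak of the top 10% was in the window of 10 and 11 of the 12 enzymes (control and RA). For the 12 regulators the counts were 11 and 9, and all genes stood at 34.3% and 33.0%. RARα peaks of that rank were at 6 and 8 enzymes and 5 and 7 regulators, against 36.2% and 40.2% of all genes. RARβ peaks of that rank were at 4 and 6 enzymes and 1 and 5 regulators, against 18.4% and 29.1%. Windows of long genes reach far, and the best RXRα peak of the control list at the regulator Ppargc1a lay 689304 bp from its start. Among the enzymes, the best RARβ peak of the RA list at Acot8, a peroxisomal thioesterase, ranked at 99.8%, whereas the best RARβ peak of the control list at Ch25h, which makes an oxysterol, ranked at 11.2%. Cyp39a1, an oxysterol hydroxylase, had the lowest best RXRα ranks of the enzymes, 89% and 84.4%. Among the regulators, Nr1i2, the gene of the receptor PXR, had the highest best RXRα rank of the control list, 99.7%, and Klb, the coreceptor through which a gut hormone represses Cyp7a1, had the highest best RARα rank of the RA list, 99.6%. Foxa2, a forkhead factor of hepatocytes, had the lowest best RARβ rank of the RA list, 37.5%.

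The genes most like Cyp7a1 in the best rank over the 6 lists were Map3k20, Zfp644 and Slc7a7, at Euclidean distances of 2.86, 5.13 and 5.49 percent points, and 256 genes lay within 20 points of it. For Nr0b2 the nearest were Gpatch3, Gpn2 and Nudc, at a distance of 0 because they are neighbours that count the same best peaks, and 1991 genes lay within 20 points.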

How the data were processed

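ChIP-seq peak lists of 6 libraries were analysed as deposited. An input library of total chromatin has no list among the files used here and entered no comparison. The labels name CASAVA 1.4, Bowtie and mm10. The methods of the paper read with these data, written for RXRα and RARα, name Bowtie and MACS with input as background. The deposited score is the peak caller's value, set by the authors' processing and not normalized between libraries. The members and lists were chosen with earlier results of these data known. All 10 members were described by the best peak of each list and every region within 10 kb of the start, with the 3 highest peaks called under 1 diet per receptor.

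Gene spans and promoters came from RefSeq tables of GRCm38.p6. For peaks the start is the outermost one of the span, with the strand taken from the promoter table for 5 members and from GENCODE M1 for 5. For promoter sequences it is the start of the promoter table. No exon annotation was used. Peaks of the 6 lists that overlapped by at least 1 bp were merged into regions. Where 2 peaks of a list fell in a region, the higher was used. Python 3.11.15, pandas 2.3.3, numpy 2.4.6 and statsmodels 0.14.6 were used. The counting steps were tested on simulated data. The alternatives were a window of 10 kb, a score of at least 100, lists of equal length, an overlap of 25%, and peaks nearest to the member's own start. A region in the Hsd3b7 window is not reported here.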

Additional observations from a re-analysis of the deposited data

Results flagged for a closer look

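The peak counts around the 10 genes moved in opposite directions with the diet. From control to RA diet the count changed by 32 for RARα (69 to 101) and by 40 for RARβ (39 to 79), and by -5 for RXRα (128 to 123). The opposite sign between each RAR and RXRα is what singled these values out. With 1 library per receptor and diet the difference was not tested, and the lengths of the whole lists moved the same way, by 8775, 14499 and -1504 peaks. At equal list length every sign was the opposite, with 36 and 32 for RARα, 39 and 37 for RARβ and 36 and 38 for RXRα under control and RA diet, and in a window of 10 kb RXRα had 48 peaks on both diets.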

How the results depend on the processing

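Each receptor and diet had 1 library, so no library could be left out within a group. No paired analysis was possible because the libraries carry no replicate numbers and the results come from no test. Values below are given for control and then RA diet. Under the altered windows, score limit and list lengths, a count without a share over all genes or regions had none computed. Such a count is no result particular to these genes. With a 10 kb window around the span, the peak counts were 23 and 39 for RARα, 14 and 30 for RARβ and 48 and 48 for RXRα. The regions called under RA and not control were then 16 for RARα, 20 for RARβ and 6 for RXRα, those called under control and not RA were 1, 5 and 10, and the share of RAR regions with RXRα was 82.6% for RARα under control and 100% for RARβ under RA. With scores of at least 100, the counts were 43 and 60 for RARα and 6 and 36 for RARβ. RARβ under control then reached 3 of 10 genes within 50 kb and 0 within 1 kb of the start. The regions called under RA and not control were 20 for RARα (32.3%, against 30.9% of all RARα regions) and 31 for RARβ (83.8%, against 68.7%). Those called under control and not RA were 3 for RARα (4.84%, against 7.72%), 2 for RARβ (5.41%, against 4.33%) and 15 for RXRα (14.9%, against 16.4%). The shares with RXRα were 45.2% and 50.8% for RARα and 16.7% for RARβ under control. With lists of equal length, the counts were 36 and 32 for RARα, 37 for RARβ under RA, and 36 and 38 for RXRα, which was called 1 kb or less from the start at 5 and 4 genes. The RA counts then exceeded the control counts for RXRα and fell short of them for RARα and RARβ, with 39 for RARβ under control. The regions called under RA and not control were 4 for RARα (10.3%, against 17.8% of all RARα regions), 16 for RARβ (30.2%, against 30.1%) and 7 for RXRα (16.3%, against 18.3%). Those called under control and not RA were 17 for RARβ (32.1%, against 29.0%) and 5 for RXRα (11.6%, against 18.2%). The shares with RXRα were 20% and 18.8% for RARα and 32.4% and 61.1% for RARβ. Counting peaks nearest to the member's own start gave 26 and 46 for RARα, 14 and 39 for RARβ and 65 and 62 for RXRα, with 23, 31 and 9 regions called under RA and not control, 3 and 6 called under control and not RA for RARα and RARβ, and shares with RXRα of 84.6% and 76.1% for RARα. Within 10 kb of the start in place of 1 kb, RARβ under control had a peak at 8 genes, against 44.1% of all genes. Counted by place from the top of the list, a setting chosen after seeing the data, 28 RARα, 11 RARβ and 52 RXRα regions ranked higher under RA, where percents gave 37, 17 and 49. All 10 values with an overlap of 25% kept within the limits set for a change. The cause was not tested where a value moved, except that a smaller window, a higher score and a shorter list hold fewer peaks. The number of reads behind each list is unknown, so a longer list and more binding cannot be told apart.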
